A study of Tuber borchii with 4 samples.

Results

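The genes described here were those with low counts in potato dextrose broth (PDB) and higher counts in the 3 other liquid media in which mycelium of *Tuber borchii* SP1, the Bianchetto truffle, was grown. They were chosen by a rule on counts per 1000000 counts of the library (CPM). A gene was a member when the lowest of its values in woody plant medium with glucose (WPG), the same medium with yeast extract (WPGY) and maltose medium with peptone and yeast extract (MPY) was at least 10 CPM and at least 3 times its value in PDB, and when MPY lay less than 3-fold from the mean of WPG and WPGY. Of the 12346 gene models of the reference genome, 35 met the rule, which is 0.283% of all models. Because the members were selected on the values of all 4 libraries, the levels and ratios given here are a description with no test.

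SP1 is a single isolate, and axenic mycelium of it was kept in static submerged cultures in the dark at 22 °C. PDB was made with 20 g of potato dextrose broth per litre. WPG and WPGY both supplied glucose at 20 g/L, and MPY supplied maltose at 35 g/L with peptone at 5 g/L. Yeast extract was added at 5 g/L to WPGY and MPY. By the labels, the woody-plant-based cultures were harvested at day 65 and the MPY and PDB cultures at day 85. The headers of the count columns read 64 for both woody-plant-based media, 83 for MPY and 85 for PDB. With 1 RNA library per medium, the spread between cultures was not measured, and p-values are left out. Against WPG and WPGY, the effect of the PDB medium and that of its later harvest cannot be told apart.

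Truffles are ectomycorrhizal ascomycetes whose vegetative mycelium can be kept without a host tree on sugar-based media. A fungal mycelium sets the transcript levels of many genes by the carbon and nitrogen sources in its medium, and media made from plant or yeast extracts are chemically undefined. The paper calls PDB and MPY complex media and groups WPG and WPGY as minimal media, although WPGY also holds yeast extract. WPG supplies glucose in a medium of mineral salts, myoinositol and a purchased woody plant product. Transcription effort is here the share of all counts of a library that falls on a gene or a group of genes. The paper takes this share from values normalized to TPM, so the shares are not the same measure.

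The libraries held between 47969567 counts in MPY and 157335190 counts in PDB, so the medium in which the members were low was the one read most deeply. One count was worth 0.00636 CPM in PDB and 0.0208 CPM in MPY. The lowest count of any member was 192 in PDB, 585 in MPY, 1211 in WPG and 1269 in WPGY. Intervals in the text are at 95% and cover counting error only. Among the 6470 models with at least 10 CPM in WPG, WPGY and MPY, the median log2 ratio of PDB to the mean of the other 3 libraries, with 1 CPM added, was −0.00, and PDB was the lowest library for 25.8% of them.

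As a group, the 35 genes made up 0.386% of the PDB counts (Wilson interval 0.385 to 0.387), against 3.51% in WPG (3.51 to 3.51), 3.54% in WPGY (3.53 to 3.54) and 2.87% in MPY (2.87 to 2.88). Their transcription effort was 9.09 times as high in WPG as in PDB, 9.16 times as high in WPGY and 7.44 times as high in MPY. The median member had 20.9 CPM in PDB against 68.0 in WPG, 68.9 in WPGY and 137 in MPY. After division of the counts by the span of each model and rescaling to 1000000 (length-scaled counts), the median member had 24.3 in PDB, 84.1 in WPG, 86.1 in WPGY and 196 in MPY. On that scale the median over all models was 19.9 in PDB and 19.0 to 19.1 in the other libraries. The median member lay nearest to it in PDB. The floor of the rule and its 3-fold limit favour this, so nothing is read from it. The median log2 ratio of PDB to the mean of the other 3 was −2.46 over the members.

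**Figure D1:**
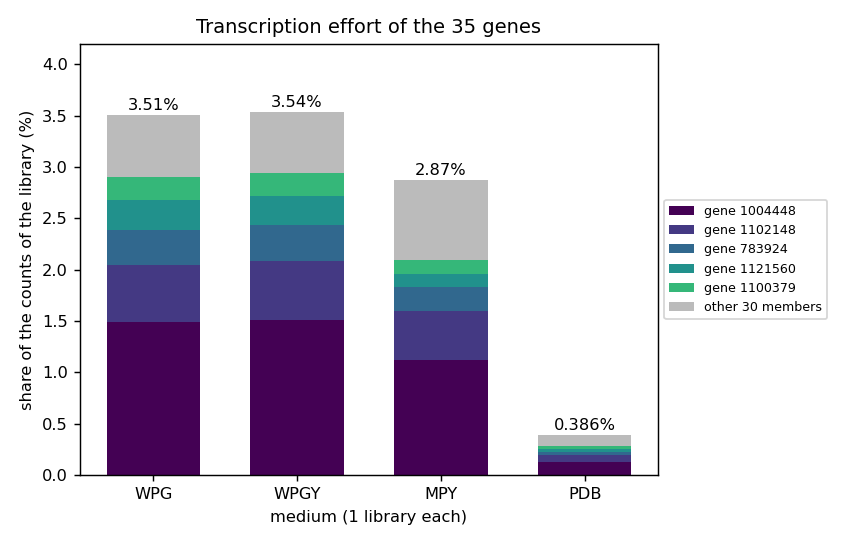
Share of the counts of each library taken by the 35 genes, in percent, with 1 library per medium. The 5 genes with the highest CPM in WPG are drawn apart, and the whole bar reaches 3.51% in WPG, 3.54% in WPGY, 2.87% in MPY and 0.386% in PDB.

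Much of the effort fell on few genes. Gene 1004448 alone made up 0.121% of the PDB counts, against 1.49% in WPG, 1.51% in WPGY and 1.12% in MPY. Without it, the other 34 genes took 2.03% in WPG, 2.03% in WPGY, 1.75% in MPY and 0.265% in PDB, which is 7.63, 7.64 and 6.60 times the PDB share. Without the 5 genes with the highest CPM in WPG, the remaining 30 took 0.605% in WPG, 0.591% in WPGY, 0.781% in MPY and 0.106% in PDB. The highest share then moved from WPGY to MPY, and the low share in PDB stayed.

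None of the 35 genes has a name of function in the sources used here, so they are given by the JGI protein ID of the model. The part of the functional annotation at hand covered 827 models. It included 1 member, gene 980797, without a function. Positions refer to the numbered sequences in assembly Tubbor1 of strain Tbo3840, and the gene table gives the span of a model without its exons or strand. Ranks of genes by level are given in counts scaled by this span. Cuts at a fixed CPM and the choice of the highest genes in WPG use counts not scaled by span.

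Gene 1004448 (sequence 376, 48397 to 50624) was the highest member. It had 1209 CPM in PDB against 14854 in WPG, 15101 in WPGY and 11218 in MPY. The 3 higher values lay close to each other and far from PDB, and the lowest of them, MPY, was 9.28 times the PDB value (exact interval 9.23 to 9.33). In length-scaled counts it ranked 8 of all models in WPG and WPGY, 5 in MPY and 148 in PDB. It was also the highest member in every library on that scale, with 8935 in WPG and 795 in PDB. The paper's lists of the 10 most expressed genes in each medium, which are given in TPM, do not include gene 1004448. The length-scaled counts here use the span with introns, so these ranks need not match ranks in TPM.

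Gene 1102148 (sequence 172, 97113 to 99524) came next in length-scaled counts in WPG and WPGY, with 3128 and 3227. It had 761 CPM in PDB against 5629 in WPG, 5748 in WPGY and 4720 in MPY. The lowest of the other 3 values was again MPY, at 6.21 times PDB (interval 6.16 to 6.25). Its rank in length-scaled counts was 19 in WPG, 19 in WPGY, 24 in MPY and 333 in PDB.

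Gene 783924 (sequence 8, 258683 to 261672) had 222 CPM in PDB against 3413 in WPG, 3491 in WPGY and 2411 in MPY. With MPY at 10.9 times PDB (interval 10.7 to 11.0), it combined a high level with one of the largest ratios of the group. Its rank in length-scaled counts was 51 in WPG and 2058 in PDB. In length-scaled counts 7 members were among the 100 highest models in WPG, 7 in WPGY, 5 in MPY and none in PDB, and 15, 15, 17 and 4 were among the 1000 highest.

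**Figure D2:**
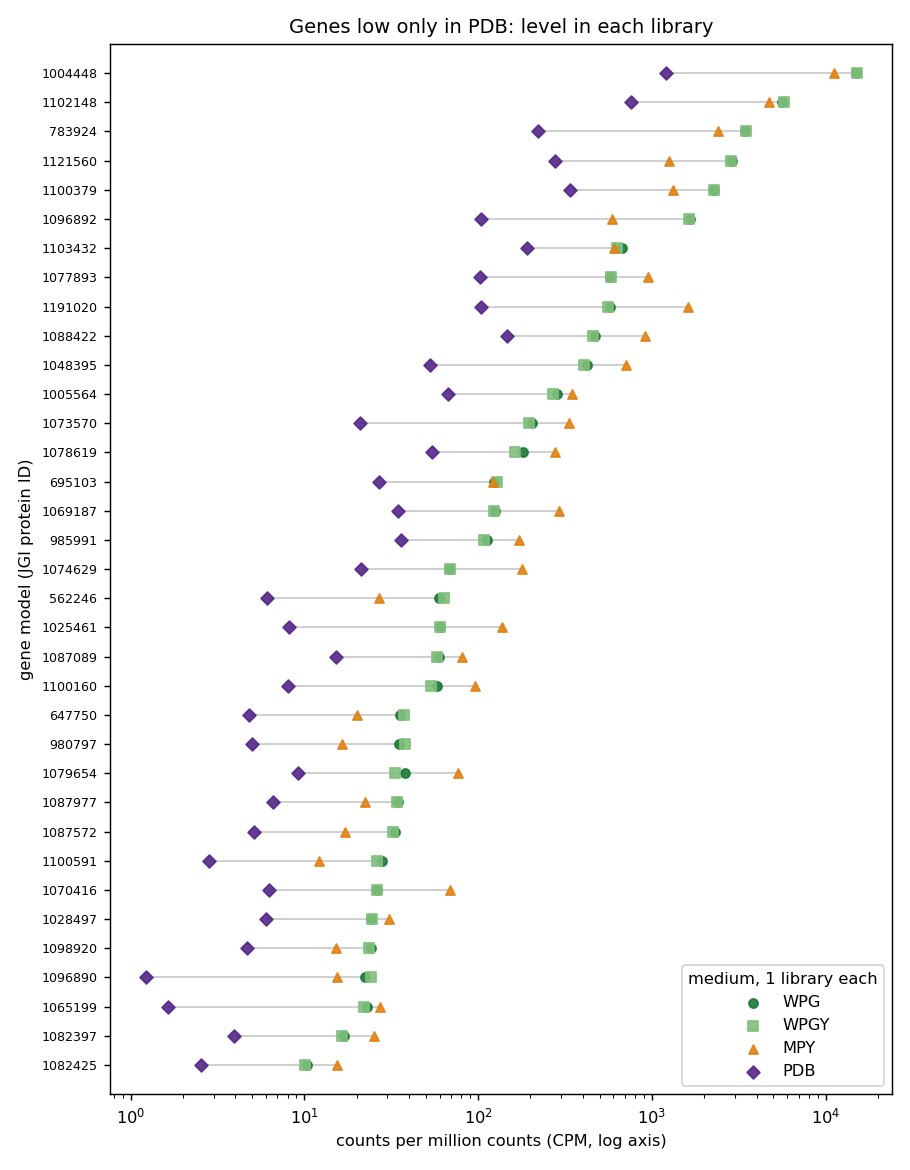
Level of each of the 35 genes in CPM on a log axis, 1 point per library, with genes ordered from bottom to top by the mean of WPG and WPGY. The PDB point is the leftmost in every row, WPG and WPGY nearly coincide, and MPY lies to the right of them for 19 genes and to the left for 16.

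The 2 largest ratios to PDB were found in genes with few counts. Gene 1065199 (sequence 126, 43613 to 45167) had 1.65 CPM in PDB against 23.0 in WPG, 22.1 in WPGY and 27.3 in MPY. The PDB value rested on 260 counts, and the lowest of the others was 13.4 times as high (interval 11.8 to 15.3). Gene 1096890 (sequence 494, 24261 to 25264) had 1.22 CPM in PDB against 22.5 in WPG, 24.2 in WPGY and 15.3 in MPY, with 192 counts in PDB. Its lowest other value, in MPY, was 12.6 times PDB (interval 10.7 to 14.8). The intervals of these 2 genes overlap, so their order is not resolved by the counts.

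Gene 1073570 (sequence 17, 433415 to 434217) had 20.9 CPM in PDB against 204 in WPG, 195 in WPGY and 335 in MPY. Gene 1048395 (sequence 118, 92253 to 93785) had 52.6 CPM in PDB against 422 in WPG, 404 in WPGY and 713 in MPY. In both genes MPY was the highest library, and WPGY, the lowest of the other 3, was 9.31 times PDB (interval 8.98 to 9.66) in 1073570 and 7.68 times (interval 7.50 to 7.86) in 1048395. Over all members the ratio of the lowest other library to PDB ran from 3.01 to 13.4 with a median of 4.15. It was at least 4 in 21 genes, at least 6 in 9 genes and at least 10 in 3 genes.

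The lowest library among the other 3 was MPY in 16 genes, WPGY in 16 and WPG in 3. Compared one medium at a time, MPY was 3.18 to 16.9 times as high as PDB, with a median of 6.05, and the mean of WPG and WPGY was 3.06 to 19.1 times as high, with a median of 5.60. For all models with at least 10 CPM in the library compared, 4.52% were at least 3 times as high in MPY as in PDB, 4.1% in WPG and 3.86% in WPGY. At least 3 times in all 3 at once was met by 45 of the 6470 models with 10 CPM in those libraries (0.696%), and the whole rule by 35 of them (0.541%). With a floor of 10 CPM in any 1 of the 4 libraries instead, 58 of 7228 models (0.802%) were at least 3 times lower in PDB.

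**Figure D3:**
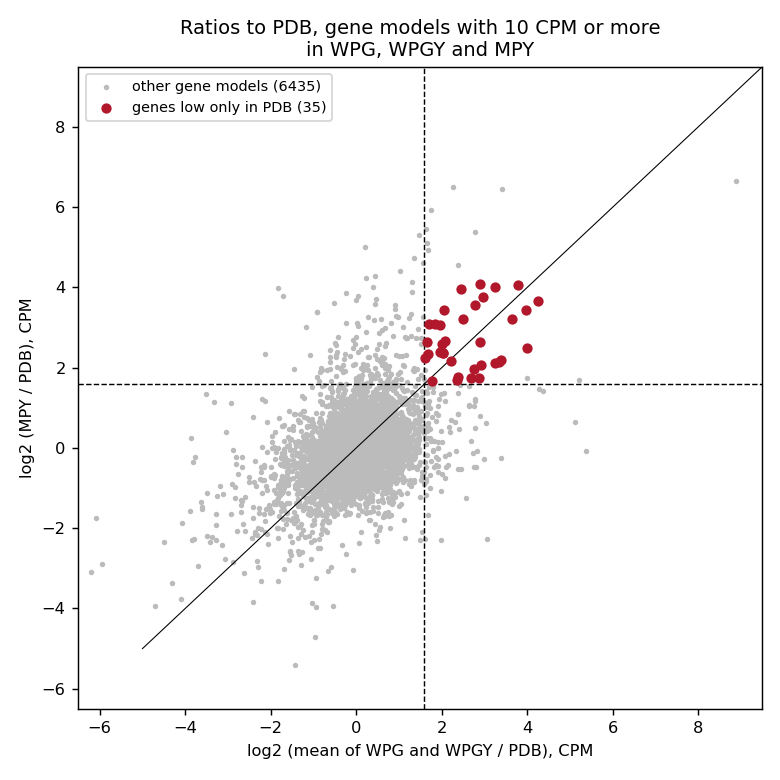
Log2 ratio of MPY to PDB against that of the mean of WPG and WPGY to PDB, in CPM, for the 6470 models with at least 10 CPM in WPG, WPGY and MPY. The 35 members lie in the upper right corner, beyond the dashed lines at 3-fold and on either side of the diagonal, which marks equal ratios. The other points in that corner that are not members break the limit on MPY or on the lower of WPG and WPGY.

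The members differed among themselves in how MPY compared with the woody-plant-based media. MPY lay above the mean of WPG and WPGY in 19 genes and below it in 16. Over the 6470 models MPY was above in 48%. Since the rule limits this ratio to 3-fold, nothing is read from these counts. The counting interval was taken for MPY against the pooled counts of WPG and WPGY, not against the mean of their CPM. In none of the 35 did it include 1, and for gene 695103 its upper end was 0.9998.

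At the low end, 5 members (14.3%) had at least 2 times as much in the woody-plant-based media as in MPY. Over the 6470 models it was 9.74%, a share that includes models 3-fold or more apart, which the rule keeps out of the members. Gene 1096892 (sequence 494, 25998 to 28597) had 104 CPM in PDB against 1656 in WPG, 1639 in WPGY and 586 in MPY. It formed a stepwise series, with MPY at 0.356 times the woody-plant mean and PDB lower again, so that MPY was 5.65 times PDB (interval 5.54 to 5.76). Gene 1121560 (sequence 37, 250316 to 252329) had 276 CPM in PDB against 2903 in WPG, 2846 in WPGY and 1254 in MPY, with MPY at 4.54 times PDB (interval 4.49 to 4.60). It was thus also intermediate in MPY, at 0.436 times the woody-plant mean.

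Other members of this subgroup lay lower in length-scaled counts in WPG. Values there were 115 for gene 562246 and 31.0 for gene 1100591, against 854 for 1096892 and 1932 for 1121560. Gene 562246 (sequence 4, 177026 to 177724) had 6.08 CPM in PDB against 59.8 in WPG, 63.9 in WPGY and 26.9 in MPY. Gene 1100591 (sequence 78, 192755 to 193970) had 2.83 CPM in PDB against 28.1 in WPG, 26.0 in WPGY and 12.2 in MPY. Their ratios of MPY to PDB, 4.42 (interval 4.06 to 4.81) and 4.30 (interval 3.80 to 4.88), cannot be told apart by the counts. The last of the 5 was gene 980797, named after its values were seen, with MPY at 0.454 times the woody-plant mean.

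On the opposite side lay 6 members (17.1%) with MPY at least 2 times the woody-plant mean. Over the 6470 models it was 9.04%, again with models 3-fold or more apart included. Gene 1191020 (sequence 43, 137094 to 137841) had 104 CPM in PDB against 574 in WPG, 561 in WPGY and 1622 in MPY. MPY was 2.86 times the woody-plant mean, the largest such ratio of the group, and 15.6 times PDB, while WPGY was 5.42 times PDB (interval 5.32 to 5.51). In length-scaled counts it ranked 19 in MPY, 99 in WPG, 98 in WPGY and 1011 in PDB.

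Gene 1025461 (sequence 121, 222035 to 223059) had 8.12 CPM in PDB against 60.4 in WPG, 60.1 in WPGY and 137 in MPY. Its MPY value was 16.9 times PDB, the largest ratio of MPY to PDB among the members. Gene 1070416 (sequence 2, 12099 to 13349) had 6.28 CPM in PDB against 26.3 in WPG, 26.0 in WPGY and 68.5 in MPY, and its lowest other value was 4.15 times PDB (interval 3.86 to 4.46). The other members of this kind were 1074629, 1069187 and 1079654, which were named after their values were seen. Their MPY values were 8.53, 8.46 and 8.38 times PDB.

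**Figure D4:**
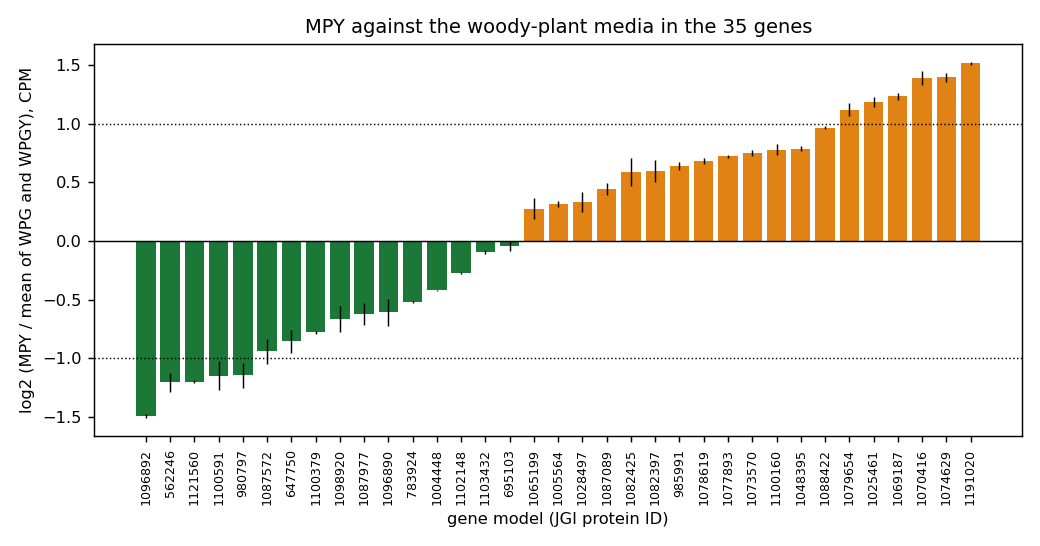
Log2 ratio of MPY to the mean of WPG and WPGY for each of the 35 genes, in CPM, in rising order. Bars above 0 are genes higher in MPY, and thin lines are 95% counting intervals against the pooled counts of WPG and WPGY. Dotted lines mark 2-fold, which 6 genes pass upward and 5 downward.

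In the remaining 24 genes MPY lay within 2-fold of the woody-plant mean. The flattest was gene 695103 (sequence 572, 19421 to 23298), the longest member with a span of 3878 bp. It had 27.1 CPM in PDB against 123 in WPG, 128 in WPGY and 122 in MPY, so that the other 3 libraries were alike and PDB stood apart, with MPY at 4.51 times PDB (interval 4.33 to 4.69). Gene 1100379 (sequence 69, 234470 to 237182) had 338 CPM in PDB against 2260 in WPG, 2279 in WPGY and 1324 in MPY, with MPY at 3.92 times PDB (interval 3.88 to 3.97). Its MPY value was intermediate, at 0.583 times the woody-plant mean.

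Gene 1077893 (sequence 50, 169121 to 172720) had 103 CPM in PDB against 574 in WPG, 581 in WPGY and 952 in MPY. WPG was 5.56 times PDB (interval 5.47 to 5.66), and MPY was the highest library. Gene 1100160 (sequence 60, 254845 to 255223), the shortest member with a span of 379 bp, had 8.06 CPM in PDB against 57.7 in WPG, 53.5 in WPGY and 95.5 in MPY. Its WPGY value was 6.64 times PDB (interval 6.26 to 7.06), and MPY was again the highest.

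Gene 1005564 (sequence 401, 53069 to 54099) had 67.3 CPM in PDB against 282 in WPG, 271 in WPGY and 344 in MPY. Gene 1082397 (sequence 98, 187803 to 188391) had 3.95 CPM in PDB against 16.9 in WPG, 16.4 in WPGY and 25.1 in MPY. In these 2 genes WPGY was the lowest of the other 3 libraries, at 4.02 and 4.14 times PDB, and the intervals (3.94 to 4.11 and 3.78 to 4.54) overlap. Gene 647750 (sequence 498, 46328 to 47125) had 4.82 CPM in PDB against 35.4 in WPG, 37.5 in WPGY and 20.2 in MPY, with MPY the lowest of the other 3 at 4.19 times PDB (interval 3.81 to 4.62).

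All 6 members with a woody-plant mean of at least 1000 CPM had a lower value in MPY than in WPG and WPGY. They were the 5 genes drawn apart in the plot of transcription effort and gene 1096892. The share over all models with such a mean is not given here. Choosing genes by a high woody-plant value favours a lower value in MPY, so nothing is read from this count. In length-scaled counts gene 1191020, which was higher in MPY, stood above 1096892 in WPG, with 1029 against 854. Of the members, 17 had a woody-plant mean of at least 100 CPM and 18 a lower one. In PDB 16 of the 35 were under 10 CPM.

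The 14 members not described in full had ratios of the lowest other library to PDB between 3.01 and 4.02, with a median of 3.34. They had between 2.55 and 191 CPM in PDB, 10.4 and 669 in WPG, 10.1 and 628 in WPGY, and 15.1 and 906 in MPY. MPY was above the woody-plant mean in 9 of them and below it in 5. In PDB 7 of the 14 were under 10 CPM.

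At the limit of 3-fold, the members just inside were gene 985991, with a ratio of 3.01 (interval 2.92 to 3.11), and gene 1078619, with 3.02 (interval 2.94 to 3.10). Gene 985991 had 36.1 CPM in PDB against 112 in WPG, 109 in WPGY and 172 in MPY. For 3 of the 35 members the interval of the ratio reached below 3. Just outside were gene 1111028 with 2.99, gene 1038451 with 2.96, gene 572551 with 2.95, gene 982618 with 2.92 and gene 1137608 with 2.87.

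Of these, gene 982618 is annotated as wos2, the Hsp90-binding co-chaperone p23 (Sba1 in yeast), which in yeast and animals binds the Hsp90 chaperone during the folding of its client proteins. It had 276 CPM in PDB against 1747 in WPG, 1672 in WPGY and 806 in MPY. The order of its media was that of the members that were intermediate in MPY, with MPY at 0.471 times the woody-plant mean. Gene 1111028 had 73.5 CPM in PDB against 220 in WPG, 220 in WPGY and 241 in MPY, so that its 3 higher values were alike.

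WPG and WPGY, which differ by the yeast extract, gave nearly the same values for the members. The ratio of WPGY to WPG lay between 0.876 (gene 1079654) and 1.08 (gene 980797). The counting interval of this ratio included 1 in 12 genes, lay above 1 in 10 and below 1 in 13. At this depth, differences of a few percent exceed counting error, and with 1 library each they cannot be told apart from the spread between preparations.

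All 35 members were found in the gene table, on 33 of the 617 sequences that hold gene models. This spread was not compared with that of other sets of models, so nothing is read from it about the members. Their spans ran from 379 to 3878 bp with a median of 1172 bp, against a median of 1241 bp over the 12345 models with a position, and 15 of the 35 lay between the quartiles of all models (762 and 1983 bp). In length-scaled counts the group took 2.40% in WPG, 2.43% in WPGY, 2.49% in MPY and 0.347% in PDB, so that on this scale MPY was as high as the woody-plant-based media.

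Genes 1096890 and 1096892 were the only members that neighbour each other. They lie 733 bp apart on sequence 494, and in both the woody-plant-based media had the highest values, MPY was intermediate and PDB was the lowest. Model 1096888, which ends 266 bp before 1096890, had 407 CPM in PDB against 459 in WPG, 446 in WPGY and 449 in MPY. It did not share the low value in PDB. The other members that share a sequence, 1028497 and 1087977 on sequence 182, start at 34442 and 106733.

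The members had 63 direct neighbours that were not members. Of these, 16 were under 1 CPM in every library, and 32 had at least 10 CPM in WPG, WPGY and MPY. Of the 32, 9 (28.1%) had PDB as the lowest library, against 25.4% of the 6435 other models that were not members. Their median log2 ratio of PDB to the mean of the other 3 was −0.12. Among the 32, those nearest to the pattern were gene 1100974, beside 1082397, and gene 975351, beside 1079654. The first had 88.5 CPM in PDB against 341 in WPG, 360 in WPGY and 224 in MPY. The second had 408 CPM in PDB against 2518, 2572 and 845.

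**Figure D5:**
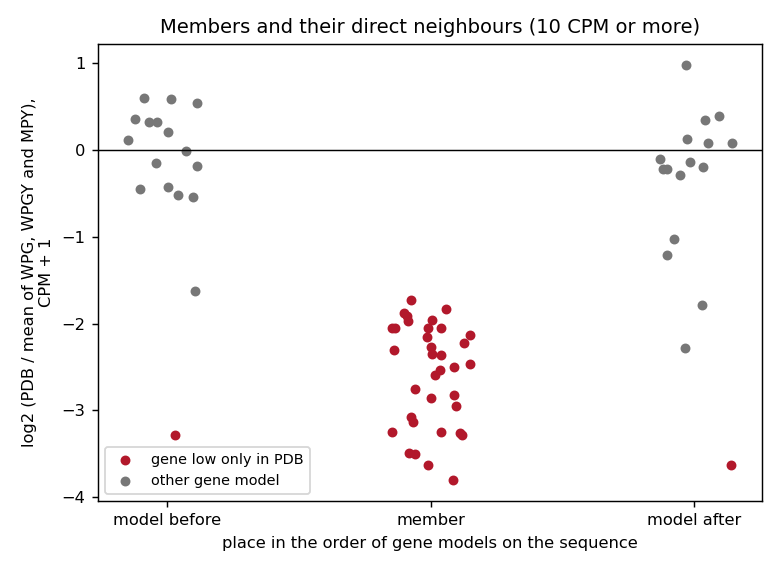
Log2 ratio of PDB to the mean of WPG, WPGY and MPY, with 1 CPM added, for the 35 members and for the models directly before and after each on its sequence that have at least 10 CPM in WPG, WPGY and MPY. The members lie between −3.80 and −1.73, and the only neighbours below −2.28, the value of gene 975351, are the members 1096890 and 1096892.

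A neighbouring model overlaps 3 of the members. Gene 1074629 shares 310 bp with 1040786, 647750 shares 203 bp with 647803, and 1036517 lies within 1096892 over 406 bp. Model 1036517 had a single count, in WPGY. Model 647803 had 0.960 CPM in PDB against 4.85 in WPG, 4.39 in WPGY and 1.75 in MPY. PDB was the lowest library and MPY the next in both 647803 and 647750, and the share of the counts that comes from the common bases is unknown. Model 1040786 had 52.6 CPM in PDB against 53.0 in WPG, 54.9 in WPGY and 37.2 in MPY, unlike 1074629.

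The same rule turned to MPY, with PDB in its place, found 80 genes low only in MPY (0.648% of all models, against 0.283% for PDB). Their share of the counts was 0.285% in MPY, against 1.64% in both WPG and WPGY and 1.58% in PDB. Genes low only in PDB were thus fewer, with 2.87% to 3.54% of the counts in the media where they were high. That larger share rested on 5 genes, without which it was 0.591% to 0.781%. The genes low only in MPY were not reduced in the same way, so these values are not set against theirs. A mirrored rule found 76 genes high only in PDB (0.616% of all models). They took 2.53% of the counts there and between 0.401% (WPG) and 0.484% (MPY) in the other libraries. At least 3 times lower in MPY than in each of the other libraries were 90 of 6520 models (1.38%), against 45 of 6470 (0.696%) for PDB. These counts compare single libraries and have no test.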

How the data were processed

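RNA of *T. borchii* SP1 mycelium from WPG, WPGY, MPY and PDB was sequenced, with 1 library per medium. The authors checked the reads with FastQC, trimmed them with Trimmomatic, aligned them to the Tbo3840 strain genome (Tubbor1) by STAR and deposited featureCounts counts for 12346 gene models, without normalization. The strand and multi-mapping settings are not given in the sources used here. Counts that fall on near-identical models or on shared bases can be split or lost, and SP1 reads were mapped to another strain.

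Counts were divided by the library total (CPM). Log2 ratios used a pseudocount of 1. Ratios of 2 counts have exact conditional intervals and shares have Wilson intervals, at 95%. Length-scaled counts used the model span, introns included. Functions came from the words in the part of the annotation at hand, sorted into 12 lists. The rule was tested on simulated counts drawn around the WPG profile, with some genes lowered in PDB. These held counting error only and no spread between cultures, so the test checks only that the rule runs as written. The members and lists were chosen with earlier results of these data known. The genes named were the 20 with the largest ratio to PDB, the 5 with the highest CPM in MPY and in WPG, the 5 nearest below the limit, and direct neighbours. With more than 30 members, the others are given by their ranges. Because positions and spans came from a table without sequence, no sequence is shown. The alternatives were other scalings (median-of-ratios, and TMM from edgeR 4.0.16), limits, floors, pseudocounts, thinning to the total of MPY with seed 7, and leaving out WPG or WPGY. The work used R 4.3.3 and Python 3.11.15 with matplotlib 3.10.9, scipy 1.17.1, pandas 2.3.3 and numpy 2.4.6.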

Additional observations from a re-analysis of the deposited data

How the results depend on the processing

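The number of genes followed the limits of the rule. It was 35 as described, 103 with a 2-fold and 21 with a 4-fold limit to PDB, 91 with a floor of 1 CPM and 331 without a floor. It lay between 24 and 45 under the other alternatives tried. Median-of-ratios scaling gave 30 genes, 29 of them among the 35, and TMM gave 31, with 30 shared. When the library totals left out the 10 most counted genes of each library, 38 genes met the rule, including all 35. All 35 also met it after thinning to the depth of MPY. They met it too when WPG or WPGY was left out, but leaving out a library can only ease the floor and the limit to PDB. The median log2 ratio of the members was −2.46, and −2.04 with a pseudocount of 5 CPM. It was −2.54 with the totals without the 10 most counted genes, an alternative for the median chosen after seeing the data. Under these scalings and the thinning no member had a ratio to PDB below 2.80. No paired analysis was possible because each medium had 1 library. Differences of a few percent lie beyond what single libraries can show.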

Other observations

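The limit on MPY kept out 10 more models that were at least 3 times lower in PDB than in each other library, since they lay 3-fold or more apart in MPY and the woody-plant-based media. They are named here after their values were seen. Gene 986569 had 5.14 CPM in PDB against 2439 in WPG, 2410 in WPGY and 512 in MPY, so that its lowest other value was 99.6 times PDB, a larger ratio than in any of the 35 genes. Gene 985714 had 259.8 CPM in PDB against 9610 in WPG, 9648 in WPGY and 845 in MPY. In 3 of the 10 models MPY was the lower side, and in 7 it was the higher. Among the 7 were gene 1064615, annotated as a protein of unknown function with a DUF4449 domain, with 13.8 CPM in PDB against 63.8 in WPG, 68.1 in WPGY and 1244 in MPY, and gene 982518, annotated as a cell surface protein, with 4.32 CPM in PDB against 14.9, 14.1 and 264.

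Of the 827 models in the annotated part, 459 had a name of function and 354 of these reached 10 CPM in a library. In 2 of the 354, the genes 1064615 and 982518, PDB was at least 3 times lower than each other library, and in 6 (1.69%) it was at least 3 times higher than each. Over all 7228 models with 10 CPM in a library, 0.802% were that much lower in PDB and 102 (1.41%) that much higher. Of the 12 lists, which were made by words in the annotation and took in genes of other functions, 11 held between 1 and 21 such models, and none of them was 3 times lower in PDB. The list of transporters and permeases had 2 of 13 models at least 3 times higher in PDB and a median log2 ratio of 0.57, and cytochrome P450 had 1 of 2. The median was −0.10 over the 7 models of the heat shock and chaperone list, against −0.02 over all models. Its members were unlike, and those named here were chosen after their values were seen. Among those of protein folding, the log2 ratio was −2.35 for the p23 model 982618, −1.32 for the HSP70 model 1192977, −0.97 for the CCT5 chaperonin subunit 24915 and −0.10 for the prefoldin subunit 963539. The copper carriers COX17 (1117909) and ATX1 (1101126), which the word chaperone also brought in, had 0.47 and 0.72, and a ubiquitin ligase (981766) had 0.23. These ratios take the mean of WPG, WPGY and MPY together. Against MPY alone, PDB was lower for 982618 (276 against 806 CPM). It was near MPY for 1192977 (14.4 against 17.1) and 963539 (33.4 against 36.2), and above MPY for 24915 (148 against 122). WPG had 48.1 CPM for 1192977 and 377 for 24915. The reference list, with a median of −0.22 over 21 models, held mostly cytosolic and mitochondrial ribosomal proteins, and its matches to histone and actin were regulators and other proteins rather than histones or actin. The nitrogen list held 3 models, with −1.64 for 1098620 (nitrate assimilation), −1.02 for 1072472 (folylpolyglutamate synthase, a folate enzyme) and −0.09 for 1070290 (glutamine synthetase). The medians of the other lists, with 1 to 5 models each, lay between −0.86 (thiamine and vitamins, which shares 1072472) and 1.52 (cytochrome P450). The part of the annotation at hand is not a random sample of the genome.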
